A study of Homo sapiens with 26 samples.

Results

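Loci with more RNA in a DNMT3B knockout line than in wild-type cells are described here. They are the rows of the authors' deposited table that set the knockout against wild type, and every such row has the higher value in the knockout. The choice gave 2243 loci, of 7074 entries in the 3 expression tables of the series. They were 8.87% of the 25286 named loci that the authors' assembled annotation holds on the main chromosomes. The table was not a record of all genes: its smallest log2 fold change was 1.001, and falls were not listed under the knockout's name.

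The cells were HCT116, a human colorectal cancer cell line. The knockout group was 1 library of total RNA from the line called 3BKO, in which DNMT3B was knocked out genetically. The wild-type group was 1 library from HCT116 cells with neither a FLAG tag nor a hairpin. Both were grown in McCoy's medium with FBS and L-glutamine, and RNA libraries were made with a stranded kit. The sources used here do not say whether 3BKO is 1 clone or which part of the gene was removed. The series also holds RNA from cells with a hairpin against ZBTB24 (shZBTB24) beside a non-targeting hairpin (shNT), 3 libraries each, and from cells with FLAG-ZBTB24 beside the tag alone (FLAG-only), 2 libraries each. FLAG-ZBTB24 and FLAG-DNMT3B binding was mapped by ChIP-seq in 3 and 2 lines. Hairpin and FLAG lines were made with lentivirus and selected with puromycin, and the FLAG lines grew from single cells.

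DNMT3B is an enzyme that puts methyl groups on cytosines of CpG dinucleotides, including ones that were not methylated before. In somatic cells it is found mostly in the bodies of transcribed genes, while dense methylation at a CpG-rich promoter goes with silencing of that gene. Inherited defects in DNMT3B, and in the zinc finger protein ZBTB24, cause ICF syndrome, an immunodeficiency with unstable, undermethylated satellite repeats. Interferon-stimulated genes are switched on when a cell senses viral or other double-stranded nucleic acid, and experimental loss of DNA methylation is known to activate them in several cancer cell lines.

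Each group was 1 library, so no difference below has a replicate check, and values are given without an error. Levels are FPKM (fragments scaled by transcript length and by library size) as the authors deposited them, and the number of fragments behind any value is unknown. Fold changes are the knockout value over the wild-type value. In bulk RNA, fewer cells of a type and less RNA per cell cannot be told apart. DNMT3B itself was not listed under the knockout's name, so the label could not be checked against the targeted gene there. It was listed only under a second label of the authors' deposited table, DNMT3BKOshZB, which matches no sample used here, with 6.46 FPKM against 21.1 FPKM in wild type (q = 0.676).

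The listed loci ranged from barely doubled to almost absent in wild type. The log2 fold change ran from 1.001 to 13.23 with a median of 2.12, which is a 4.34-fold difference. Of the 2243 loci, 1184 were at least 4-fold higher, 52.8% of them, and 65 were past a log2 fold change of 8. In wild type 390 loci were under 0.1 FPKM, and their median difference was 46.8-fold. A further 883 loci were between 0.1 and 1 FPKM in wild type (median 5.11-fold), 784 were between 1 and 10 FPKM (2.89-fold) and 186 were at 10 FPKM or more (2.41-fold). No listed locus was under 0.550 FPKM in the knockout, so a wild-type value under 0.1 FPKM gave a large fold change by construction. With 1 FPKM added to both groups the count past 4-fold was 422 in place of 1184. In the knockout 1930 loci reached 1 FPKM, 649 reached 10 FPKM and 66 reached 100 FPKM. Both groups were under 1 FPKM at 313 loci.

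**Figure D1:**
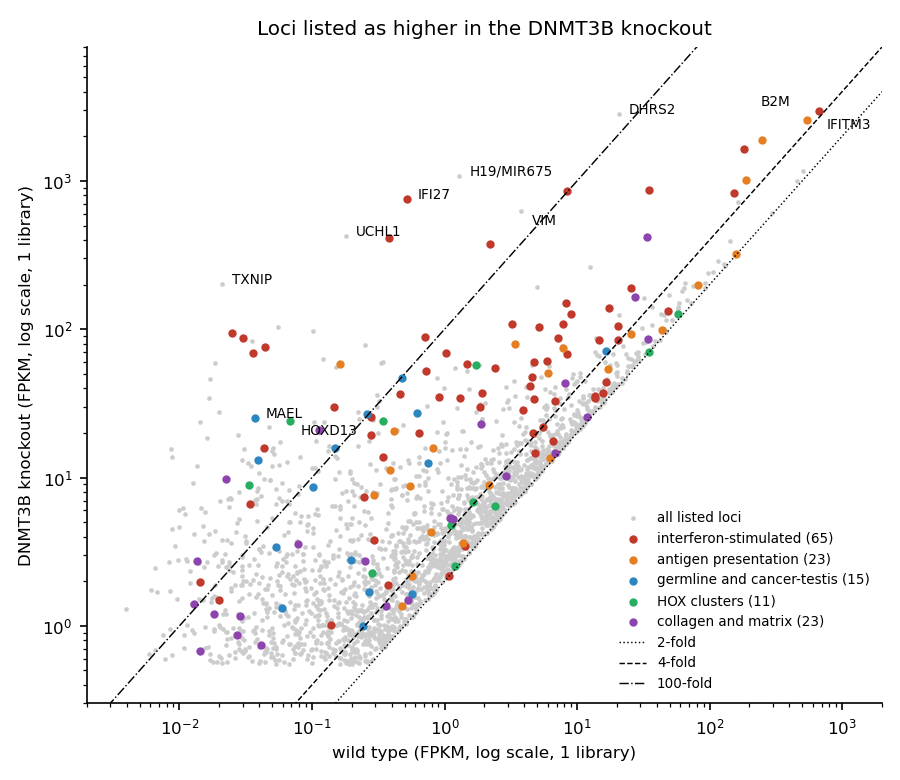
Each point is 1 listed locus, with its FPKM in the knockout (vertical axis, log scale, 1 library) against its FPKM in wild type (horizontal axis, log scale, 1 library), and colours mark 5 gene lists. All points lie above the 2-fold line because the table holds no others, and interferon-stimulated loci reach from 1.01 to 2984 FPKM in the knockout.

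The values nearest the lower limit of the list show how it was drawn. MNS1 had 6.84 FPKM in the knockout and 3.41 FPKM in wild type, and GK, glycerol kinase, had 1.151 FPKM in the knockout and 0.575 FPKM in wild type. The shared locus of FOXO3B and ZNF286B had 2.81 FPKM in the knockout and 1.40 FPKM in wild type. Loci just under a 2-fold difference are not in the table. A gene missing from the list may have been unchanged, lower, untested or removed by a filter, and the table does not say which.

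Only 7 of the 2243 loci passed the authors' own threshold of q under 0.05, and 210 had an unadjusted p under 0.05, in the authors' deposited table. That test compares 2 libraries, not the 2 conditions. DHRS2, a mitochondrial short-chain dehydrogenase, rose to 2833 FPKM in the knockout, against 20.6 FPKM in wild type (q = 0.00636 in the authors' deposited table). NOTUM, a secreted enzyme that inactivates Wnt proteins, rose to 192 FPKM in the knockout, against 4.96 FPKM in wild type. ISG15, a ubiquitin-like protein, rose to 867 FPKM in the knockout, against 35.1 FPKM in wild type, and OAS3 rose to 150 FPKM in the knockout, against 8.29 FPKM in wild type. COL6A1, a chain of type VI collagen, rose to 418 FPKM in the knockout, against 33.9 FPKM in wild type. The locus of IFITM1 and IFITM2 rose to 1641 FPKM in the knockout, against 182 FPKM in wild type, and the joint locus of LRCH4, SAP25 and ZASP rose to 261 FPKM in the knockout, against 12.4 FPKM in wild type. On hg19 these loci lie at chr14:24105573-24114848 (DHRS2), chr17:79910375-79919720 (NOTUM), chr1:948847-949919 (ISG15), chr12:113376238-113411055 (OAS3), chr21:47401663-47424963 (COL6A1), chr11:307602-315272 (IFITM1 and IFITM2) and chr7:100169851-100183811 (LRCH4, SAP25 and ZASP). All 7 had at least 4.96 FPKM in wild type, so larger fold changes from lower starting levels are not among them.

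Interferon-stimulated genes made up the most complete of the lists. Of 81 such genes in the annotation 67 were listed, 82.7%, in 65 loci, beside 9.08% of all 26313 genes of the annotation. Their median log2 fold change was 3.81, 14.1-fold, beside 2.12 over all listed loci, and 55 of the 65 loci were past 4-fold. In wild type 23 of the 65 were under 1 FPKM. Of these loci 3 passed q under 0.05 in the authors' deposited table, namely ISG15, OAS3 and the IFITM1 and IFITM2 locus. The 14 annotated genes that were not listed were AIM2, DDX60L, GBP4, GBP5, IFIT1B, IFITM10, JAK2, MB21D1, MX2, RTP4, SAMD9L, TMEM173, TRIM25 and ZBP1. The gene lists were chosen with earlier results of these data known, so this share and those of the lists below are descriptive. The 9.08% also counts classes that were rarely listed, such as genes named MIR (28 of 1868) and small nucleolar RNA genes (0 of 368). It is therefore a low mark to set any list against.

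Many interferon-stimulated promoters hold the interferon-stimulated response element, which a complex that includes STAT2 and IRF9 binds. Its core was searched as GAAANNGAA on both strands, with overlapping matches counted, in RefSeq windows of 300 bases (GRCh38.p14, 250 before the start and 50 after it). The core was present in 7.06% of 15842 windows of protein-coding genes. Windows were in hand for 47 of the 65 listed interferon-stimulated loci, which is 72.3%, under the 80% needed for a check over the list, so such a check is void. Of those 47 windows 31 held the core. A match describes letters and is not a binding site. Sequences of 8 of these genes are shown because the elements lie just before the starts of genes whose levels follow, with the core in capitals, or its reverse complement where it lies on the other strand.
ISG15: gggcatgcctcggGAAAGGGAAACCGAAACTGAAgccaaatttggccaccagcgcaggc
IFI27: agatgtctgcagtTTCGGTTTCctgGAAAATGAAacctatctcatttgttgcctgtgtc
OAS3: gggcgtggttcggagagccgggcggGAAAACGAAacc
IFIH1: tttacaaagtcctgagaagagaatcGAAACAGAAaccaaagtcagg
BST2: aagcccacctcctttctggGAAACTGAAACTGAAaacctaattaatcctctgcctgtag
IFI6: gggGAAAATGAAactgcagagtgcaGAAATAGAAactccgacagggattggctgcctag
RSAD2: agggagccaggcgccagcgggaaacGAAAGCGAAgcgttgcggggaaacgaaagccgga
IFIT1: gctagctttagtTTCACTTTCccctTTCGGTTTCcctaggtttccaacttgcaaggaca
Read on the gene's own strand and on GRCh38.p14, they lie at chr1:1013371-1013429 (ISG15, plus strand), chr14:94110616-94110674 (IFI27, plus), chr12:112938437-112938473 (OAS3, plus), chr2:162318685-162318730 (IFIH1, minus), chr19:17405721-17405779 (BST2, minus), chr1:27672252-27672310 (IFI6, minus), chr2:6865781-6865839 (RSAD2, plus) and chr10:89392496-89392554 (IFIT1, plus). The stretches of OAS3 and IFIH1 are shorter because they stop at the start site. In ISG15 and BST2 the cores overlap in a tandem array, while IFIT1 carries 2 on the opposite strand.

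Among sensors of nucleic acid, 6 of 10 annotated genes were listed and all 6 were past 4-fold. IFI16, a DNA sensor, had 75.9 FPKM in the knockout and 0.0444 FPKM in wild type. The RNA helicases followed, with 55.1 FPKM in the knockout and 2.39 FPKM in wild type for IFIH1 (MDA5) and 47.9 FPKM in the knockout and 4.61 FPKM in wild type for DDX58 (RIG-I). DHX58 (LGP2) had 25.6 FPKM in the knockout and 0.279 FPKM in wild type. EIF2AK2, the kinase PKR, had 84.9 FPKM in the knockout and was already at 20.5 FPKM in wild type. TLR3, an endosomal receptor for double-stranded RNA, had 1.88 FPKM in the knockout and 0.377 FPKM in wild type.

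Of the 8 signalling factors 7 were listed. STAT2, which carries interferon signals to the nucleus, had 43.8 FPKM in the knockout and 16.5 FPKM in wild type, and IRF9, its DNA-binding partner, had 109 FPKM in the knockout and 7.81 FPKM in wild type. IRF7, the factor that amplifies interferon transcription, had 109 FPKM in the knockout and 3.25 FPKM in wild type, a 33.4-fold difference. The negative regulators were listed as well, USP18 with 34.1 FPKM in the knockout and 1.31 FPKM in wild type and SOCS1 with 3.45 FPKM in the knockout and 1.42 FPKM in wild type. The kinase gene JAK2 was not listed.

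The OAS genes encode enzymes that make 2-5 oligoadenylates when they bind double-stranded RNA. OAS1 had 94.1 FPKM in the knockout and 0.0249 FPKM in wild type, OAS2 had 29.7 FPKM in the knockout and 0.147 FPKM in wild type, and OASL had 58.3 FPKM in the knockout and 1.48 FPKM in wild type. The log2 fold change of 11.88 at OAS1 rests on a wild-type value near 0.

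IFIT proteins bind the ends of foreign RNA. IFIT1 had 88.7 FPKM in the knockout and 0.712 FPKM in wild type, IFIT3 had 69.6 FPKM in the knockout and 1.02 FPKM in wild type, and IFIT2 had 35.0 FPKM in the knockout and 0.907 FPKM in wild type. IFIT5 differed least of the 4, with 17.8 FPKM in the knockout and 6.57 FPKM in wild type. IFIT1B was not listed.

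The highest values of the list were in the IFI and IFITM genes and in ISG15. IFITM3, which blocks entry of enveloped viruses, had 2984 FPKM in the knockout and 668 FPKM in wild type, the highest value of all listed loci in each group. IFITM genes are near-identical copies, so their split is uncertain, and the assembled IFITM3 locus spans more than 3 times the named gene. IFI6 had 851 FPKM in the knockout and 8.34 FPKM in wild type, and IFI27 had 753 FPKM in the knockout and 0.521 FPKM in wild type. The joint locus of IFI44 and IFI44L had 86.9 FPKM in the knockout and 0.0304 FPKM in wild type. All 6 genes of the group that holds ISG15 and its conjugation enzymes were listed. UBE2L6, its conjugating enzyme, had 138 FPKM in the knockout and 17.4 FPKM in wild type, HERC5, its ligase, had 41.3 FPKM in the knockout and 4.42 FPKM in wild type, and the activating enzyme UBA7, in a locus with MIR5193, had 13.7 FPKM in the knockout and 0.341 FPKM in wild type.

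Antiviral effectors were listed for 31 of 38 genes. MX1, a dynamin-like GTPase, had 414 FPKM in the knockout and 0.382 FPKM in wild type, a 1085-fold difference. BST2 (tetherin) had 374 FPKM in the knockout and 2.22 FPKM in wild type. XAF1, a binding partner of the apoptosis inhibitor XIAP, had 69.0 FPKM in the knockout and 0.0356 FPKM in wild type. RSAD2 (viperin) had 6.67 FPKM in the knockout and 0.0341 FPKM in wild type, a low level in both. The guanylate-binding proteins, known mainly as targets of interferon gamma, remained low: GBP2 had 1.98 FPKM in the knockout and 0.0144 FPKM in wild type, and GBP1 had 1.49 FPKM in the knockout and 0.0198 FPKM in wild type. Effectors with high wild-type levels differed less, as in SHISA5 with 132 FPKM in the knockout and 48.5 FPKM in wild type and ZC3HAV1 (ZAP) with 34.5 FPKM in the knockout and 13.7 FPKM in wild type.

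**Figure D2:**
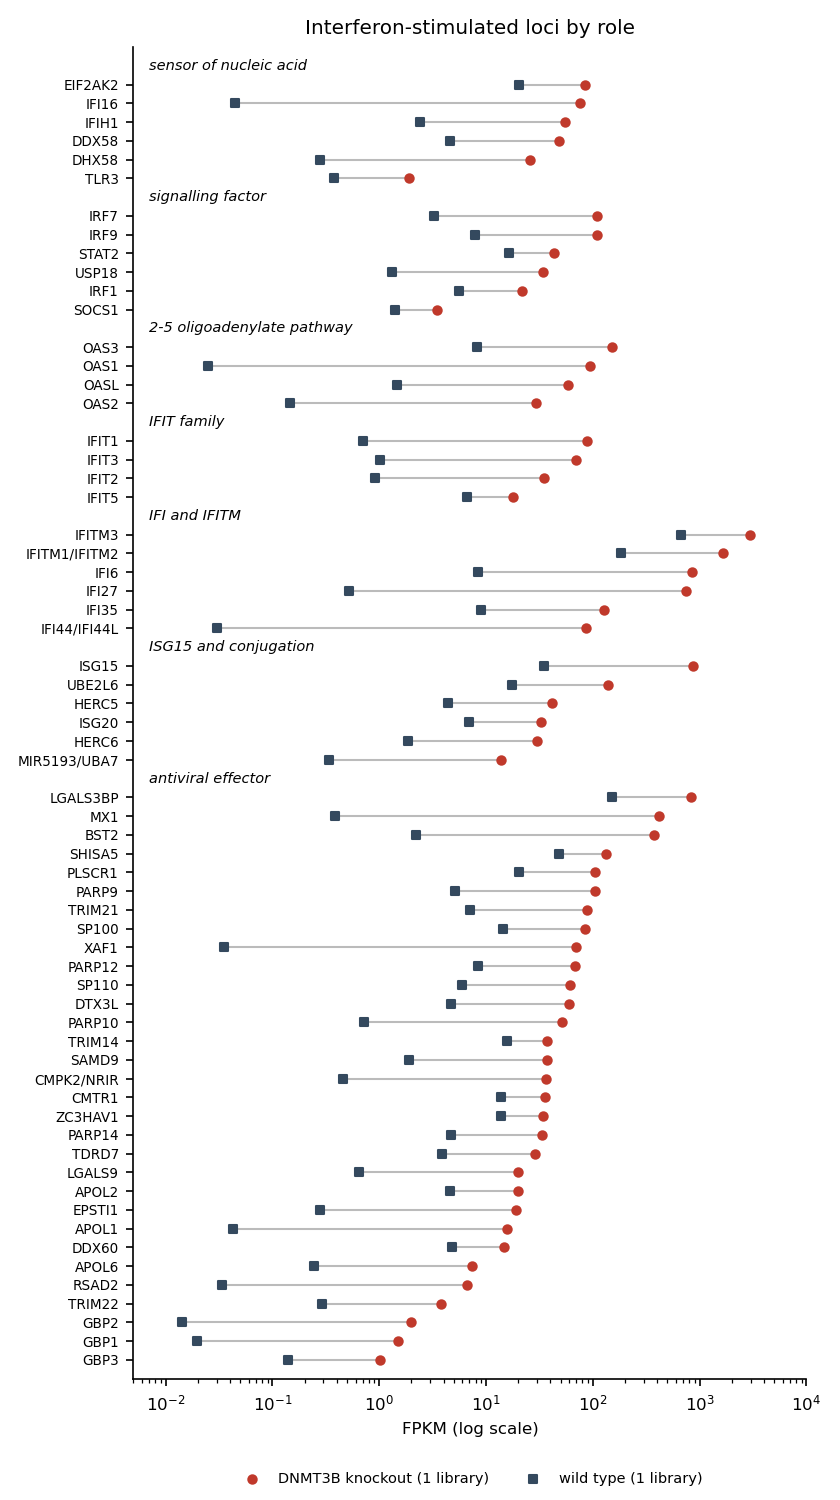
Interferon-stimulated loci listed as higher in the knockout are shown by role, 63 of the 65, with FPKM on a log scale, and each line joins the knockout value (circle) and the wild-type value (square) of 1 locus (1 library each). Wild-type values run from 0.0144 FPKM for GBP2 to 668 FPKM for IFITM3, and the OAS1 and IFI44/IFI44L pairs are the widest.

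Of 9 annotated interferon genes, of types I and III and with the type II gene IFNG, 1 was listed. That is 11.1%, near the 9.08% of all annotated genes. It was IFNL2, with 1.89 FPKM in the knockout and 0.203 FPKM in wild type. Of 6 genes for their receptor chains 0 were listed, too few genes to set against that share. The lambda interferon genes are near-identical copies, so the assignment to IFNL2 is uncertain.

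Antigen presentation genes were listed nearly as completely, 27 of 33 (81.8%), beside 9.08% of all annotated genes. Their 23 loci had a median log2 fold change of 2.44, and 14 loci were past 4-fold (60.9%, beside 52.8% of all listed loci). Class I genes began from high wild-type levels. B2M, the invariant light chain, had 2574 FPKM in the knockout and 539 FPKM in wild type, and the HLA-B and HLA-C locus had 1892 FPKM in the knockout and 249 FPKM in wild type. HLA genes are near-identical copies and polymorphic, so their values are uncertain. Genes that cut and move peptides had their own spread. PSMB8, an immunoproteasome subunit, had 58.1 FPKM in the knockout and 0.162 FPKM in wild type, PSMB9 had 80.02 FPKM in the knockout and 3.39 FPKM in wild type, and the transporter gene TAP1 had 74.6 FPKM in the knockout and 7.88 FPKM in wild type. These 3 share 1 assembled span on chromosome 6 with PSMB8-AS1, so the division of reads among them is uncertain. The proteasome activator gene PSME1 differed least, with 322 FPKM in the knockout and 160 FPKM in wild type.

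Class II genes, usually restricted to immune cells, were listed for 9 of 12 genes in 8 loci, at much lower levels. HLA-DPA1 had 20.7 FPKM in the knockout and 0.415 FPKM in wild type, HLA-DPB1 had 15.7 FPKM in the knockout and 0.822 FPKM in wild type, and CD74, the invariant chain, had 11.3 FPKM in the knockout and 0.389 FPKM in wild type. The class I regulator NLRC5 had 8.82 FPKM in the knockout and 0.548 FPKM in wild type. CIITA, the class II regulator, was not listed, nor were HLA-DMA, HLA-DMB, HLA-DQA1, PSMB10 and TAPBPL. None of the 23 loci passed q under 0.05 in the authors' deposited table.

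Chemokine and NF-kB target genes were listed for 21 of 47 genes (44.7%), beside 9.08% of all annotated genes. Their median log2 fold change was 2.43, beside 2.12 over all listed loci. NFKBIA, the inhibitor that NF-kB induces, had 162 FPKM in the knockout and 32.0 FPKM in wild type, and ICAM1, an adhesion receptor for leukocytes, had 60.9 FPKM in the knockout and 4.70 FPKM in wild type. The neutrophil attractants CXCL1 and CXCL8 had 35.2 and 24.8 FPKM in the knockout, against 3.37 and 1.93 FPKM in wild type. CCL5, which attracts T cells, had 6.62 FPKM in the knockout and 0.0539 FPKM in wild type. CXCL9, CXCL10 and CXCL11, chemokines that interferon gamma induces, were not listed, nor were TNF, IL6 and IL1B.

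**Figure D3:**
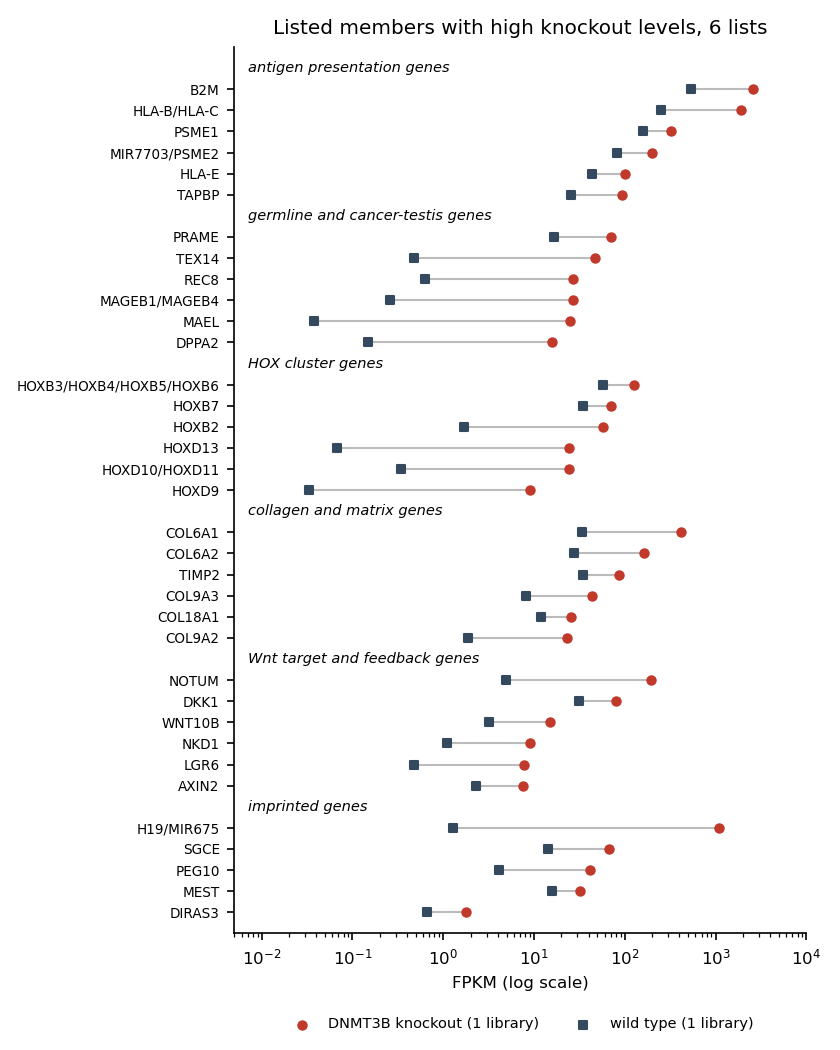
For 6 gene lists, up to 6 listed loci with high knockout levels are shown with FPKM on a log scale, and each line joins the knockout value (circle) and the wild-type value (square) of 1 locus (1 library each). B2M stands at 2574 FPKM in the knockout and 539 FPKM in wild type, while MAEL and HOXD9 are near 0 in wild type, at 0.0373 and 0.0332 FPKM.

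Germline and cancer-testis genes, which promoter methylation is known to hold silent in somatic cells, were listed for 16 of 123 in the annotation, 13.0%, in 15 loci, beside 9.08% of all annotated genes. Those listed differed strongly, with a median log2 fold change of 5.44 and 14 of 15 loci past 4-fold, but 14 of 15 were under 1 FPKM in wild type, and with 1 FPKM added to both groups the median was 2.96. MAEL, a piRNA pathway gene, had 25.1 FPKM in the knockout and 0.0373 FPKM in wild type. TDRD12, of the same pathway, had 13.1 FPKM in the knockout and 0.0394 FPKM in wild type, and TEX14, needed for bridges between germ cells, had 47.0 FPKM in the knockout and 0.481 FPKM in wild type. REC8, a meiotic cohesin subunit, had 27.2 FPKM in the knockout and 0.625 FPKM in wild type. On the X chromosome 3 of 23 MAGE genes and 2 of 46 other cancer-testis genes were listed, among them SSX1 with 8.58 FPKM in the knockout and 0.101 FPKM in wild type and MAGEA6, one of several near-identical copies, with 12.6 FPKM in the knockout and 0.752 FPKM in wild type. DAZL and DDX4, which also mark germ cells, were not listed.

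The promoters of 4 listed genes are shown because they span the range of CpG content among genes with large differences. Each sequence is the 250 bases before the RefSeq start on GRCh38.p14, with CpG dinucleotides in capitals. They are DHRS2 (chr14:23629865-23630114, plus strand), UCHL1 (chr4:41256678-41256927, plus strand), HOXD13 (chr2:176092471-176092720, plus strand) and MAEL (chr1:166975332-166975581, plus strand).
DHRS2: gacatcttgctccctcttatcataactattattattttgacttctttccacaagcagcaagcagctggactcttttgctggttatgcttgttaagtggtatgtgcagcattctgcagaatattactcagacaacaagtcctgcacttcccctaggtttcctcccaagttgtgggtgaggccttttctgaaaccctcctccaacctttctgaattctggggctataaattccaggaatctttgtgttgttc
UCHL1: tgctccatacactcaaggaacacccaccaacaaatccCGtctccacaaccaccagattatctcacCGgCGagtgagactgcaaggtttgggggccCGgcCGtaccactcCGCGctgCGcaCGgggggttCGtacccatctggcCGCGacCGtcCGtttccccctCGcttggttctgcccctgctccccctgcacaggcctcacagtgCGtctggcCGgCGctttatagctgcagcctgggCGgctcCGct
HOXD13: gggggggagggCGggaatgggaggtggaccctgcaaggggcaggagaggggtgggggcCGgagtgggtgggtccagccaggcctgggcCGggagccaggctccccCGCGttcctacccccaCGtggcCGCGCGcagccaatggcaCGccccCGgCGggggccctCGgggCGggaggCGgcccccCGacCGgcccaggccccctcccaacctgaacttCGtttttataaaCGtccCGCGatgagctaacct
MAEL: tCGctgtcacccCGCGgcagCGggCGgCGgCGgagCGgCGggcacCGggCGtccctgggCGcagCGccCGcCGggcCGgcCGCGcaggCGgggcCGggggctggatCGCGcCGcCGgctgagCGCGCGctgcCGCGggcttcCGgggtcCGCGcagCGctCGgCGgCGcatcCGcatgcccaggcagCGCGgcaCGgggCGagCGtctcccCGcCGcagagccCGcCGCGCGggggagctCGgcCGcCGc
DHRS2 had 0 CpG in its stretch, UCHL1 had 20, HOXD13 had 21 and MAEL had 51. Windows were taken by symbol, 1 RefSeq start each, so that start may differ from the start of the assembled locus, DHRS2 included. DHRS2 had the highest knockout level of the 4 but the smallest fold change, 138 beside 356 for HOXD13, 673 for MAEL and 2349 for UCHL1. These 4 genes were picked, and a relation of CpG content to level was not tested. No methylation values were used here, so whether any of these CpG lost methylation was not measured.

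Genes often methylated in colorectal tumours were listed for 13 of 54 (24.1%), beside 9.08% of all annotated genes. Their median log2 fold change was 1.43, below the 2.12 of all listed loci. Past 4-fold were 30.8% of them, beside 52.8% of all listed loci. UCHL1, a deubiquitinase of neurons, had 422 FPKM in the knockout and 0.180 FPKM in wild type, and VIM, the mesenchymal filament vimentin, had 629 FPKM in the knockout and 3.80 FPKM in wild type. SPARC, a secreted matrix glycoprotein, had 78.4 FPKM in the knockout and 0.250 FPKM in wild type, and DKK3 had 6.29 FPKM in the knockout and 0.0237 FPKM in wild type. These 4 were the ones past 4-fold; the other 9 differed by less. CDKN2A, MGMT, SFRP1, SFRP2, GATA4, GATA5 and TFPI2 were not listed.

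HOX genes, the body-axis transcription factors, were listed for 15 of 48 cluster genes (31.25%) in 11 loci, beside 9.08% of all annotated genes. Their median log2 fold change was 2.09. The HOXD loci were near silent in wild type. HOXD13 had 24.2 FPKM in the knockout and 0.0682 FPKM in wild type, the HOXD10 and HOXD11 locus had 24.2 FPKM in the knockout and 0.342 FPKM in wild type, and HOXD9 had 8.96 FPKM in the knockout and 0.0332 FPKM in wild type. The HOXB loci were already expressed, with 128 FPKM in the knockout and 57.9 FPKM in wild type for the joint locus of HOXB3 to HOXB6 and 70.4 FPKM in the knockout and 34.9 FPKM in wild type for HOXB7. HOXB2, which shares its assembled span with that joint locus, had 57.3 FPKM in the knockout and 1.71 FPKM in wild type.

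Of 34 imprinted genes 5 were listed (14.7%), beside 9.08% of all annotated genes. The H19 locus with MIR675, a maternally expressed RNA whose parental copies are told apart by methylation, had 1084 FPKM in the knockout and 1.28 FPKM in wild type. IGF2, its neighbour with the opposite imprint, was not listed. PEG10 had 40.9 FPKM in the knockout and 4.15 FPKM in wild type, and SGCE, next to it, had 67.5 FPKM in the knockout and 14.1 FPKM in wild type.

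The DNA methylation list counted the APOBEC3 cytidine deaminases under removal, and of its 29 genes 5 were listed (17.2%), beside 9.08% of all annotated genes. Only DNMT3A among the 5 lay outside the APOBEC3 family. DNMT3A, the related de novo enzyme, had 8.47 FPKM in the knockout and 3.25 FPKM in wild type. APOBEC3G, a cytidine deaminase that restricts retroviruses, had 23.8 FPKM in the knockout and 0.103 FPKM in wild type. The other 3 were APOBEC3 loci beside it, at log2 fold changes of 1.31 to 2.46. ZBTB24, HELLS, UHRF1, the TET genes, TDG and MBD4 were not listed. CDCA7 and DNMT1 were listed only under the DNMT3BKOshZB label, with lower values than wild type.

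Collagen and matrix genes were listed for 23 of 57 (40.4%), beside 9.08% of all annotated genes. Their median log2 fold change was 3.61, and 17 were past 4-fold (73.9%, beside 52.8% of all listed loci). In wild type 13 of the 23 loci were under 1 FPKM, and with 1 FPKM added to both groups the median was 1.52. Besides COL6A1, COL6A2 had 164 FPKM in the knockout and 27.2 FPKM in wild type, and COL6A3, the third chain of the same collagen, had 20.8 FPKM in the knockout and 0.113 FPKM in wild type. MMP13, a collagenase, had 9.81 FPKM in the knockout and 0.0223 FPKM in wild type, and MMP9, a gelatinase, had 3.57 FPKM in the knockout and 0.0789 FPKM in wild type. The fibrillar collagen genes COL1A1, COL1A2 and COL3A1 were not listed.

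Wnt genes were listed for 15 of 46 (32.6%), beside 9.08% of all annotated genes. Besides NOTUM, DKK1, a secreted inhibitor, had 80.5 FPKM in the knockout and 31.5 FPKM in wild type. The assembled DKK1 span is over 3 times the named gene. The feedback genes NKD1 and AXIN2 had 8.99 and 7.48 FPKM in the knockout, against 1.11 and 2.32 FPKM in wild type. WNT5B, a ligand, had 5.24 FPKM in the knockout and 0.0283 FPKM in wild type. MYC, CCND1, LGR5, RNF43 and ZNRF3, other targets of the pathway, were not listed.

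Epithelial and mesenchymal genes were listed for 16 of 70 (22.9%), beside 9.08% of all annotated genes. Mesenchymal genes were 5 of 10, and besides VIM they were FN1, with 9.99 FPKM in the knockout and 2.12 FPKM in wild type, ZEB1, TWIST1 and SNAI2. CDH2, ZEB2, SNAI1, TWIST2 and S100A4 were not listed. KRT17 had 13.8 FPKM in the knockout and 0.0813 FPKM in wild type, and MUC5AC, a gastric mucin, had 6.01 FPKM in the knockout and 0.00988 FPKM in wild type. EPCAM and CDH1 were not listed, so whether they were lower or unchanged cannot be told apart.

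Growth factor genes were listed for 11 of 60 (18.3%), beside 9.08% of all annotated genes. The largest fold change among them was at IGFBP4, an IGF-binding protein, with 104 FPKM in the knockout and 0.0552 FPKM in wild type. Dehydrogenase and detoxification genes were listed for 12 of 55 (21.8%, beside the same 9.08%). Besides DHRS2 they included AKR1B1 with 59.0 FPKM in the knockout and 19.7 FPKM in wild type. ALDH1L1 had 6.92 FPKM in the knockout and 0.0202 FPKM in wild type. Of 11 genes of the DHRS family 1 was listed, DHRS2, a share of 9.09% beside 9.08% of all annotated genes. A short list of chosen histone genes, not all histone genes, had 9 of 16 annotated members listed (56.25%, beside the same 9.08%). The linker histone gene H1F0 was highest of them, with 993 FPKM in the knockout and 453 FPKM in wild type. Metallothionein genes (1 of 12, 8.33%, MT1F) and p53 target genes (2 of 32, 6.25%, GADD45B and TRIM22) were listed about as often as all genes, and TRIM22 also counts as interferon-stimulated. The endogenous retrovirus genes ERV3-1, ERVFRD-1, ERVH48-1, ERVK13-1, ERVMER34-1, ERVV-1 and ERVV-2 were not listed, too few genes to set against that share. Most retroviral copies carry no gene symbol, so they were not measured here.

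Among loci with at least 5 FPKM in the knockout, the 15 with the largest fold changes came from several gene classes. TXNIP, an inhibitor of thioredoxin, had 201 FPKM in the knockout and 0.0209 FPKM in wild type, but its assembled span on chromosome 1 runs from 144146811 to 146585928 on hg19, far beyond the gene. INA, a neuronal filament protein, had 59.4 FPKM in the knockout and 0.0186 FPKM in wild type. JAM3, a junctional adhesion protein, had 45.9 FPKM in the knockout and 0.0170 FPKM in wild type, and ANPEP, an aminopeptidase of the cell surface, had 34.6 FPKM in the knockout and 0.0167 FPKM in wild type. The locus of RAB34 and NARR had 82.9 FPKM in the knockout and 0.0351 FPKM in wild type. FBLN2, a matrix protein, had 23.8 FPKM in the knockout and 0.0142 FPKM in wild type, and ROBO1, a guidance receptor, had 13.8 FPKM in the knockout and 0.00872 FPKM in wild type. The long non-coding RNA AFAP1-AS1 had 15.6 FPKM in the knockout and 0.00859 FPKM in wild type, in a span over 3 times the named gene. The others were UCHL1, IGFBP4 and 5 interferon-stimulated loci. No locus of the 15 passed q under 0.05 in the authors' deposited table.

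At the other end stood loci with high wild-type levels. CALR, a chaperone of the endoplasmic reticulum, had 1174 FPKM in the knockout and 503 FPKM in wild type. POLR2A, the largest subunit of RNA polymerase II, had 603 FPKM in the knockout and 297 FPKM in wild type. LY6E, an interferon-inducible surface protein, had 723 FPKM in the knockout and 163 FPKM in wild type, and LGALS3BP, a secreted glycoprotein, had 835 FPKM in the knockout and 153 FPKM in wild type.

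Markers of other cells and of the colon were read in the same table, which lists only higher loci and 9.08% of all annotated genes. Of 10 colon epithelial markers KRT20 was listed, with 1.49 FPKM in the knockout and 0.558 FPKM in wild type, and the other 9 had no value to check the label with. T cell markers were listed for 2 of 7, CD4 with 2.74 FPKM in the knockout and 0.0862 FPKM in wild type and CD8A with 0.829 FPKM in the knockout and 0.380 FPKM in wild type, while CD3D, CD3E and PTPRC were not. B cell markers were listed for 1 of 4, CD79B, with 6.44 FPKM in the knockout and 0.209 FPKM in wild type. Macrophage markers were listed for 1 of 8, CD68, with 39.3 FPKM in the knockout and 17.5 FPKM in wild type. The assembled CD68 span is over 3 times the named gene. Fibroblast markers were listed for 1 of 8, PDGFRB, with 0.964 FPKM in the knockout and 0.0718 FPKM in wild type. Neuronal markers were listed for 2 of 8, NEFL with 1.73 FPKM in the knockout and 0.171 FPKM in wild type and NEFM with 0.904 FPKM in the knockout and 0.0972 FPKM in wild type, and endothelial markers for 0 of 5. The part of other cells in the differences above was not tested.

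Some listed loci lay side by side. There were 44 runs of at least 3 listed loci next to each other among named loci, with 145 loci in all, and 10 runs of at least 4. The longest had 6 loci in the class II region of chromosome 6, from HLA-DOB through TAP2, PSMB8, PSMB8-AS1 and TAP1 to PSMB9 (positions 32780540 to 32827628, hg19), and log2 fold changes from 1.53 to 8.49. On chromosome 12 a run of 5 held OAS1, OAS3 and OAS2 between RPH3A and DTX1 (113229549 to 113535833, hg19). The genes at its ends are no interferon-stimulated genes by the list, and RPH3A, a synaptic vesicle protein, had 1.08 FPKM in the knockout and 0.129 FPKM in wild type, while DTX1, a regulator of Notch, had 2.80 FPKM in the knockout and 0.0365 FPKM in wild type. On chromosome 21 COL6A1 and COL6A2 were followed by FTCD, with 2.43 FPKM in the knockout and 0.315 FPKM in wild type, and SPATC1L, with 11.8 FPKM in the knockout and 0.459 FPKM in wild type. On chromosome 4 HERC6 and HERC5 lay beside ABCG2 and PPM1K. Other runs joined genes of unlike kinds, such as SLC6A15, TSPAN19, LRRIQ1 and ALX1 on chromosome 12, ANKFN1, NOG, C17orf67 and DGKE on chromosome 17, and DENND1C, TUBB4A, TNFSF9 and CD70 on chromosome 19. PRKCDBP, SMPD1, APBB1 and the HPX and TRIM3 locus on chromosome 11 were all under 4-fold, as 3 of 4 were among KANSL3, FER1L5, LMAN2L and CNNM4 on chromosome 2. The remaining run held LOC102724301, TRIM29, OAF and POU2F3 on chromosome 11. Overlapping spans bear on such runs, since 129 listed loci shared their span with another listed locus.

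The share of named loci that was listed differed between chromosomes. It was highest on chromosome 22, with 12.6% (70 of 556 loci, 95% Wilson interval 10.1 to 15.6), and 11.4% on chromosome 17 (9.88 to 13.2). It was 4.39% on the X chromosome (47 of 1071 loci, 3.32 to 5.79) and 4.10% on chromosome 13 (23 of 561 loci, 2.75 to 6.08). These intervals cover counting error only, and neighbouring loci are not independent.

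FLAG-DNMT3B binding was measured apart from the choice of loci. Of the 2243 listed loci 235 had a merged FLAG-DNMT3B peak in the gene body, 10.5% (95% Wilson interval 9.28 to 11.8), beside 5922 of all 25286 named loci, 23.4%. The share climbed with the wild-type level: 1.79% of loci under 0.1 FPKM, 2.27% of those between 0.1 and 1 FPKM, 17.1% of those between 1 and 10 FPKM and 39.8% of those at 10 FPKM or more had a peak. Loci that were near silent in wild type thus mostly had no peak. Of the 970 listed loci with at least 1 FPKM in wild type 21.4% (18.98 to 24.1) had a peak, against 42.0% (39.5 to 44.5) of 1474 loci that the shZBTB24 table lists, with at least 1 FPKM in shNT and no place among the knockout's higher loci. The levels within these groups were not alike, and the difference was smaller within level ranges. Between 1 and 10 FPKM, read in wild type for the listed loci and in shNT for the others, the share was 17.1% (14.6 to 19.9) for the listed loci and 29.7% (26.4 to 33.2) for 684 others. At 10 FPKM or more it was 39.8% (33.0 to 47.0) for the listed loci and 52.7% (49.2 to 56.1) for 790 others. Within spans of 10 to 50 kb, at all levels of at least 1 FPKM, these shares were 26.2% (22.1 to 30.8) for the listed loci and 51.2% (47.4 to 54.9) for the others, and at spans of at least 50 kb they were 29.5% (24.8 to 34.8) for the listed loci and 51.2% (46.6 to 55.9) for the others. That second group holds only loci the shZBTB24 table lists, so it is not all expressed genes.

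**Figure D4:**
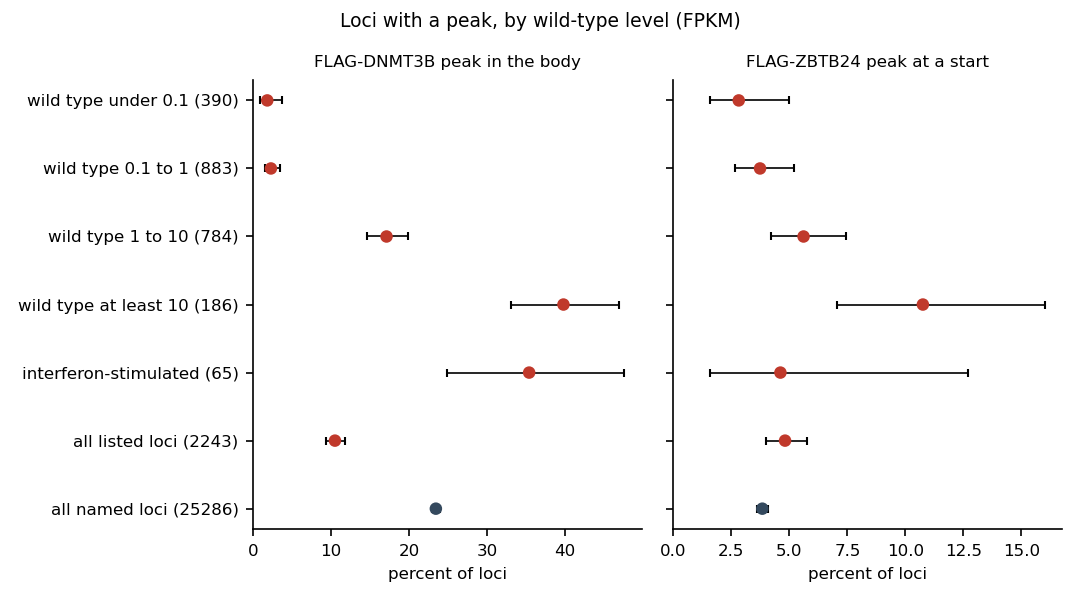
Points give the percent of loci with a FLAG-DNMT3B peak in the gene body (left) or a FLAG-ZBTB24 peak at a start (right), with 95% Wilson intervals as error bars, for listed loci (red) by wild-type level and by list and for all named loci (dark), with the number of loci in brackets. On the left, listed loci under 0.1 FPKM in wild type stand at 1.79% and those at 10 FPKM or more at 39.8%; on the right these shares are 2.82% and 10.8%.

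Of the 65 interferon-stimulated loci 23 had a peak, 35.4% (24.9 to 47.5), beside 10.5% of all listed loci. Their median wild-type level was 3.25 FPKM, beside 0.695 FPKM over all listed loci. Peaks covered 44.4% of the body of CMTR1, a cap methyltransferase, and 37.4% of ZC3HAV1. OAS3 (27.1% covered) and DDX58 (31.3%) also had them, while ISG15, IFI27, IFI6, MX1 and BST2 had none. Of the 15 germline loci 0 had a peak, which allows a share of up to 20.4% by the same interval. Antigen presentation loci had a peak in 3 of 23, among them TAP2 with 26.0% of its body covered. The FLAG-DNMT3B lines carry an added copy of the enzyme, and the ChIP labels give binding in those lines and not in wild-type cells.

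FLAG-ZBTB24 peaks lay at the promoters of 108 listed loci, 4.81% (4.004 to 5.78), beside 3.84% of all named loci. Among the loci with such a peak were B2M, OAS3, IFIH1, EPSTI1, HLA-DPB1, the HLA-DRB locus, HOXB7, AXIN2, LMAN2L and OAF. By wild-type level the share was 2.82% under 0.1 FPKM and 10.8% at 10 FPKM or more. Listed loci with at least 1 FPKM in wild type stood at 6.598% (5.201 to 8.34). The shZBTB24 table's other loci, with at least 1 FPKM in shNT, stood at 6.38% (5.24 to 7.74). Between 1 and 10 FPKM these shares were 5.61% and 5.99%. At 10 FPKM or more they were 10.8% (7.07 to 16.02) and 6.71% (5.17 to 8.67), with overlapping intervals. An excess was thus not seen over all loci of at least 1 FPKM.

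The listed loci were then looked up in the table for shZBTB24 against shNT, which rests on 3 libraries each and on other controls. That table too lists only part of the loci, so a locus missing from it has no value. There 379 were found, 16.9% of the listed loci and 19.3% of the 1965 loci of that table. Of these 167 had higher and 212 had lower values in shZBTB24 cells. The share with higher values was 44.1%, beside 55.0% of all loci of that table. Past q under 0.05 in the authors' deposited table, 66 rose (17.4%, beside 12.2% of all loci of that table) and 59 fell (15.6%, beside 9.82%). Both shares were above those of the whole table, and the falls were nearly as many as the rises. Of the 66 rises 36 were interferon-stimulated loci, and the other 30 were not. The labels do not tie the hairpin replicates to separate cultures, so the spread behind these q values may be technical.

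Interferon-stimulated loci lay in 1 direction there. All 48 interferon-stimulated loci found there were higher in shZBTB24 cells, 36 of them rose and 0 fell. IFI6 rose to 302 FPKM in shZBTB24 cells, against 46.0 FPKM in shNT cells, and IFIT3 rose to 4.43 FPKM in shZBTB24 cells, against 0.728 FPKM in shNT cells. The starting levels of some genes were far from those of wild type: IFI27 had 302 FPKM in shZBTB24 cells and 61.7 FPKM in shNT cells, beside 753 FPKM in the knockout and 0.521 FPKM in wild type. MX1 had 1.77 FPKM in shZBTB24 cells and 0.743 FPKM in shNT cells, beside 414 FPKM in the knockout. The sources used here do not say whether the tables were normalized together, so levels set across them are descriptive. Of 5 antigen presentation loci found all were higher and 2 rose, B2M and TAP2.

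Of the 66 rises and 59 falls with shZBTB24 among the knockout's listed loci, 30 rises and all 59 falls were outside the interferon list. Over all 1965 loci of the shZBTB24 table, 240 rose and 193 fell. DHRS2, the highest of the 7 loci past the threshold in the knockout, fell to 14.8 FPKM in shZBTB24 cells, against 27.8 FPKM in shNT cells. COL6A3 fell to 1.08 FPKM in shZBTB24 cells, against 3.14 FPKM in shNT cells, and COL18A1 and TIMP3 fell too, the 3 falls among 6 collagen and matrix loci found. VCAN, a matrix proteoglycan with 124 FPKM in the knockout and 20.9 FPKM in wild type, fell to 1.07 FPKM in shZBTB24 cells, against 2.60 FPKM in shNT cells. SNAI2 and PEG10 also fell with the hairpin. HOXB7, with a FLAG-ZBTB24 peak at its promoter, rose to 20.4 FPKM in shZBTB24 cells, against 9.48 FPKM in shNT cells.

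**Figure D5:**
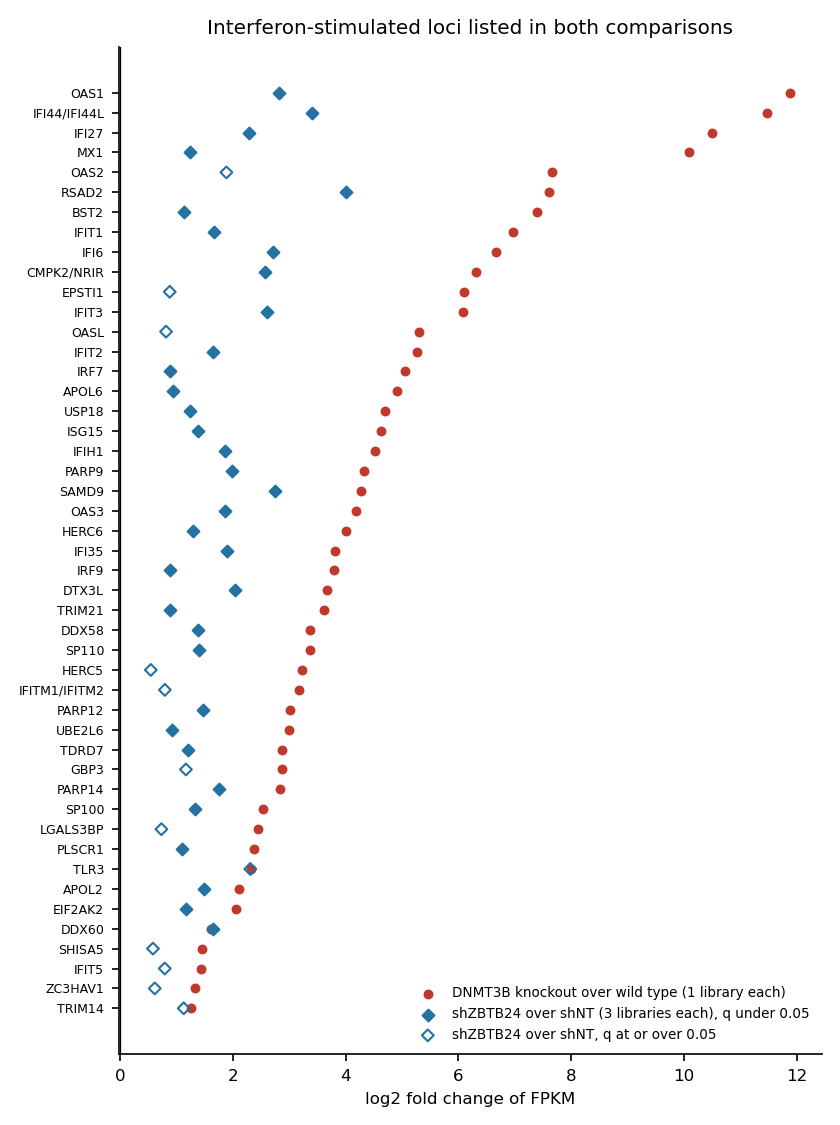
Each line of the plot is 1 interferon-stimulated locus found in both tables, 47 of the 48, with its log2 fold change of FPKM in the DNMT3B knockout over wild type (circle, 1 library each) and in shZBTB24 over shNT cells (diamond, 3 libraries each, filled where q was under 0.05 in the authors' deposited table). All diamonds lie above 0, from 0.55 for HERC5 to 4.01 for RSAD2, and 35 of them are filled.

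In the table for FLAG-ZBTB24 against FLAG-only, 412 of the listed loci were found, 18.4% of them and 23.4% of that table. Of these 205 were higher and 207 lower in FLAG-ZBTB24 cells. The higher ones were 49.8%, beside 47.3% of all loci of that table. Past q under 0.05 in the authors' deposited table, DNAH2, a dynein heavy chain, rose and IFI27 fell, to 19.3 FPKM in FLAG-ZBTB24 cells against 101 FPKM in FLAG-only cells. Of 25 interferon-stimulated loci found there 2 were higher and 23 lower, 1 of them past the threshold.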

How the data were processed

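RNA from 1 library of DNMT3B knockout and 1 of wild-type HCT116 cells was compared. Per the submitters' processing notes, HISAT2, StringTie, Cufflinks and MACS2 were used with the hg19 build; their versions were not given in the sources used here. Each locus has 1 FPKM value per group, a p-value and a q-value, all as the authors deposited them. The log2 fold changes the authors deposited were recomputed from FPKM (largest difference 4.7e-05). Depth is unknown. Peaks carry a score the authors deposited, of a kind not stated by them; 15909 FLAG-DNMT3B and 6173 FLAG-ZBTB24 peaks came merged over lines.

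The loci and the 26 gene lists were chosen with earlier results of these data known. A locus with several symbols counted as 1, and 96 did. Spans over 3 times the named gene were found at 272 loci. A body peak overlapped the gene by at least 1 base between its outermost transcript ends, and a promoter peak had its midpoint within 1000 bp of a start. Shares have 95% Wilson intervals for counting error alone. With 1 library per group no test was run, and no set test. Tables were joined by symbol. Symbols of 2147 loci with 1 symbol were matched to RefSeq, 2089 with success, of which 1905 were protein-coding and 1448 of these (76.0%) had a promoter window, under the 80% needed.

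Genes were named by rule: loci with q under 0.05, the 15 largest folds with at least 5 FPKM in the knockout, the 15 highest past 4-fold, up to 6 per list, runs of at least 4, the 5 highest in wild type, the 3 smallest folds and the ICF and DNMT genes; other genes named were chosen after their values were seen. A few genes of the lists are not reported here by name; they remain in the counts and medians. Counts and folds were tested on simulated data. Python 3.11.15, pandas 2.3.3, NumPy 2.4.6, SciPy 1.17.1 and matplotlib 3.10.9 were used.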

Additional observations from a re-analysis of the deposited data

How the results depend on the processing

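The balance of rises and falls with shZBTB24 turned round under an alternative setting. No median fold change could change sign, because every listed locus was higher in the knockout. With 1 FPKM added to both groups, 422 loci in place of 1184 were past 4-fold, and the median log2 fold change was 1.17 over all listed loci, 3.17 for interferon-stimulated, 2.96 for germline and 1.52 for collagen and matrix loci; this setting shrinks folds of low values by construction. Of loci with at least 1 FPKM in wild type, 248 were past 4-fold, from fewer loci by construction. Counting every listed direction in the shZBTB24 table, with no threshold, 167 of the knockout's higher loci were higher and 212 lower. Falls thus outnumbered rises, in place of 66 rises and 59 falls. The share with higher values was 44.1%, beside 55.0% of all loci of that table. Where peaks had to cover at least 50% of the body, the FLAG-DNMT3B share was 0.580% of listed and 3.65% of all named loci; with peaks scored above the median only, it was 6.11% and 16.7%. Within 500 bp of a start, FLAG-ZBTB24 shares were 3.74% of listed and 2.90% of all named loci, and with upper scores only 2.27% and 2.04%. Leaving out loci with wide assembled spans, an alternative chosen after seeing the data, kept 1040 loci past 4-fold. It moved 2 list medians, that of HOX loci to 1.40 and that of imprinted loci to 3.30; the cause was not tested. Another promoter setting was not run, because too few loci had a window. No paired analysis was possible because each group had 1 library. Unknown depth limits every value under 1 FPKM, and no spread between knockout libraries could be measured.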

Other observations

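Further families appeared among the listed loci, which hold 9.08% of all annotated genes. These families were picked after their values were seen and carry no test. The gamma protocadherins, neuronal adhesion proteins encoded by a cluster of alternative first exons, formed 1 locus with 20.2 FPKM in the knockout and 4.05 FPKM in wild type, and the alpha cluster formed another with 3.76 FPKM in the knockout and 1.77 FPKM in wild type. PCDHB14 of the beta cluster had 1.30 FPKM in the knockout and 0.0450 FPKM in wild type. Of 6 apolipoprotein L genes, which lie together on chromosome 22, 4 were listed, and APOL3 had 13.0 FPKM in the knockout and 0.0299 FPKM in wild type. Of 9 beta tubulin genes 5 were listed, and TUBB2B, a neuronal form, had 15.7 FPKM in the knockout and 0.0308 FPKM in wild type, while TUBB6 had 125 FPKM in the knockout and 45.4 FPKM in wild type. Of 66 TRIM genes 12 were listed, and TRIM29 had 9.05 FPKM in the knockout and 0.220 FPKM in wild type.

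Large gene classes differed in their share of listed genes. Of 874 long intergenic RNA genes named LINC 38 were listed (4.35%), and of 998 antisense RNA genes 59 (5.91%), beside 9.08% of all annotated genes. Solute carriers named SLC stood at 8.12% (32 of 394) and zinc finger genes named ZNF at 11.1% (53 of 476). Of 368 small nucleolar RNA genes 0 were listed.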
